A study of Mus musculus with 2 samples.

Results

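In all, 10 genes of the SOX family were followed, Sox9, Sox8, Sox10, Sox4, Sox11, Sox12, Sox5, Sox6, Sox7 and Sox18, each found by its symbol among the 23647 genes of the deposited count table. All 10 had a row. RNA with poly(A) tails was sequenced from PDGFRa+ cells, the sorted stromal cells that include adipocyte precursors, taken from the stromal vascular fraction of inguinal white fat. The groups were Sox9 PreASKO mice and Sox9 floxed mice (also labelled WT), with 1 library each and 3 mice pooled per library. All mice were male by label, 3 weeks old and had received doxycycline on postnatal day 1. The labels do not state what drives the recombinase. From knowledge of the published line, PreASKO mice carry the floxed allele that the controls also carry, together with doxycycline-induced Cre driven by the promoter of Dlk1, the gene of Pref-1. Deletion there starts in cells that make Pref-1, and the sorted cells need not all descend from them.

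SOX proteins are transcription factors that bind and bend DNA through a high-mobility-group (HMG) box, and members of a subgroup share much of their sequence outside the box as well. SOX9, of the SOXE subgroup, drives cartilage formation and holds back fat-cell differentiation in preadipocytes. SOXD proteins lack an activation domain of their own and assist SOX9 in cartilage, SOXC proteins act in embryonic and progenitor cells, and SOXF proteins act in blood and lymph vessel endothelium.

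The PreASKO library held 37597048 counts and the floxed library 61761645, so low levels are less precise in PreASKO. Levels are counts scaled to library totals (CPM), with exact 95% Poisson intervals, and ratios are PreASKO over floxed with exact 95% binomial intervals. Both intervals cover counting error only: a single library per genotype leaves no spread between animals and no test, so each ratio compares these pools. The label male is not borne out by every transcript, since Xist, the RNA of the inactive X chromosome, stood at 745 CPM in PreASKO and 3.24 CPM in floxed while 4 Y-linked genes summed to 70.5 and 90.8 CPM. Its part in the results below was not tested.

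As a family, SOX transcripts were lower in the PreASKO pool. The 10 genes summed to 60.6 CPM in PreASKO (2279 counts) and 94.2 CPM in floxed (5819 counts), a ratio of 0.643 (0.613 to 0.675). This sum includes Sox9, the gene targeted in PreASKO, which held 28.1% of the counts in PreASKO and 30.4% in floxed. The difference was seen in the sums of the SOXE, SOXC and SOXD subgroups and was not shared by SOXF. SOXF stood at 4.34 CPM in PreASKO and 3.68 CPM in floxed, a ratio of 1.18 (0.959 to 1.45). SOXC summed to 29.1 CPM in PreASKO and 46.7 CPM in floxed, a ratio of 0.623 (0.580 to 0.668). SOXE summed to 19.5 and 33.2 CPM, a ratio of 0.586 (0.538 to 0.638), mostly from Sox9 itself at 17.0 and 28.6 CPM. Within SOXE, Sox8 was also lower, while Sox10 had 29 counts in PreASKO and 0 in floxed. SOXD summed to 7.71 and 10.6 CPM, a ratio of 0.730 (0.633 to 0.839). Of the family's counts, SOXC held 48.0% in PreASKO and 49.6% in floxed, SOXE 32.1% and 35.3%, and SOXD 12.7% and 11.2%. SOXF held 7.15% in PreASKO and 3.90% in floxed, the largest relative difference in share. The SOXF values depended on the count used, since each gene has a raw and a repeat-distributed count, added together here. Scaled to each column's total, raw counts alone gave ratios of 1.75 for Sox7 and 1.68 for Sox18. Repeat-distributed counts alone gave 0.206 and 0.897. In bulk samples, fewer cells of a type and less RNA per cell cannot be told apart.

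**Figure D1:**
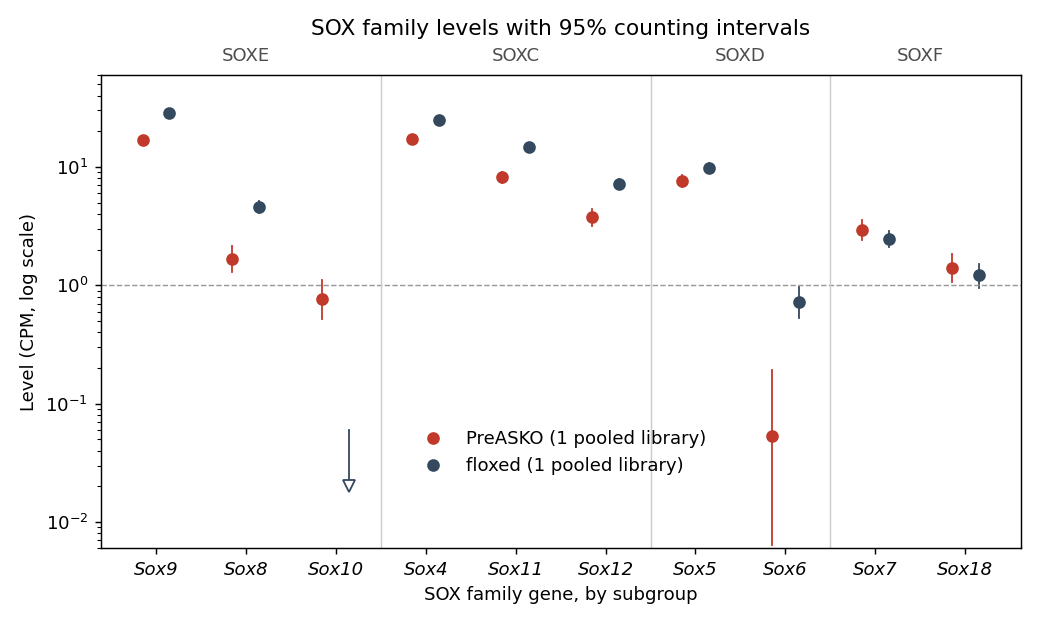
Levels of the 10 SOX genes (y axis, CPM on a log scale) in the PreASKO library (red) and the floxed library (dark blue), grouped by subgroup on the x axis; points are the levels, vertical lines exact 95% Poisson intervals, the open triangle marks 0 counts with the line reaching up to the interval's upper bound, and the dashed line is 1 CPM. The SOXE and SOXC genes except Sox10, and both SOXD genes, sit lower in PreASKO, while Sox7 and Sox18 have overlapping intervals.

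Proximal promoters from RefSeq (GRCm38.p6, 250 bases before to 50 after the annotated start) were matched for 6 of the 10 genes. Those of the 3 SOXC genes are shown because these genes were all lower in PreASKO, and that of Sox8 because it had the lowest ratio among the measured genes. Each sequence is on the minus strand, 5′ to 3′, and capitals mark CCAAT or its reverse complement ATTGG, the element bound by the general promoter factor NF-Y. The CCAAT search was added after the sequences had been looked at.
Sox4 (chr13:28953650-28953949): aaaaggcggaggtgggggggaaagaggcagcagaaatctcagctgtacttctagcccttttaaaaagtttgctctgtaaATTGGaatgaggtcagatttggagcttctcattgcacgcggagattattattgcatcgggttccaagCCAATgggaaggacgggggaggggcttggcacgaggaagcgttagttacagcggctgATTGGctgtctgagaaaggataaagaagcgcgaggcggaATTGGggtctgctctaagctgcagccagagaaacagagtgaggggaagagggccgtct
Sox11 (chr12:27342669-27342968): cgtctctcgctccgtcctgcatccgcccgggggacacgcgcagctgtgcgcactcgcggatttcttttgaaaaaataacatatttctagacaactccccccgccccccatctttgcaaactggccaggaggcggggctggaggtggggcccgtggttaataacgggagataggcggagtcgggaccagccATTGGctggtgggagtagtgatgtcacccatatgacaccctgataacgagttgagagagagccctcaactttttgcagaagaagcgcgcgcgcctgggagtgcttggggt
Sox12 (chr2:152397997-152398296): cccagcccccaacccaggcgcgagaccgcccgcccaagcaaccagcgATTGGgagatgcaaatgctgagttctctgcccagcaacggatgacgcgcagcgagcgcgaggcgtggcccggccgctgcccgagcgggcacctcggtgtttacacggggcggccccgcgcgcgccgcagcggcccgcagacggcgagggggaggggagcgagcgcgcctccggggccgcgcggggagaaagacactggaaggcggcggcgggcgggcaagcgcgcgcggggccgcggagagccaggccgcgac
Sox8 (chr17:25570637-25570936): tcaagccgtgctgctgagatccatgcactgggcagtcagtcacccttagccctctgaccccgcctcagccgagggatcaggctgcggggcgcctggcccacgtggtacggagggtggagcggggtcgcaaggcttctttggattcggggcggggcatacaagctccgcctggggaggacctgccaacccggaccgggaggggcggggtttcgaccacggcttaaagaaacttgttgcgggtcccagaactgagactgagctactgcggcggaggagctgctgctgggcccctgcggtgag
CCAAT on either strand occurred 4 times in the Sox4 window, 1 time each in those of Sox11 and Sox12 and not in that of Sox8, and 37.4% of 32851 RefSeq promoter windows of the same length hold it. The SOX core letters ACAAT and ACAAAG, also sought on both strands, were in none of these 4 windows, and 42.9% of all windows hold at least 1 of them. The matched SOXD genes, also lower in PreASKO, differed in this, since the single window of Sox5 and all 6 windows of Sox6 hold at least 1 of these cores. CCAAT was absent from the Sox5 window and present in 3 of the 6 Sox6 windows. The windows differed in base composition, with GC at 52% for Sox4, 58.7% for Sox11, 76.7% for Sox12 and 66.3% for Sox8.

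Sox9 was lower in the PreASKO pool but was not lost from it. Sox9 (Entrez ID 20682; chromosome 11, 112782224 to 112787760, GRCm38, plus strand, 3 exons) stood at 17.0 CPM in PreASKO (640 counts, 15.7 to 18.4) and 28.6 CPM in floxed (1768 counts, 27.3 to 30.0). The counting intervals do not overlap, and the ratio was 0.595 (0.542 to 0.651), or 1.68-fold lower. Counts per gene do not resolve the floxed part, so the remaining counts are not a measure of intact message. The difference depended on the counting column. Here and below, a ratio from 1 column is scaled to that column's own total in each library unless the library total is named. The raw count alone gave a ratio of 0.434 (0.369 to 0.508) and the repeat-distributed count alone 0.688 (0.614 to 0.770), intervals that do not overlap. Scaled to the library totals instead, they gave 0.483 (0.411 to 0.566) and 0.666 (0.595 to 0.745). Raw counts were 31.7% of Sox9 counts in PreASKO and 39.0% in floxed.

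Sox8, the SOXE gene that overlaps SOX9 in function in testis, had the lowest ratio of the measured members. Sox8 (ID 20681; chromosome 17, 25565892 to 25570686, minus strand) stood at 1.68 CPM in PreASKO (63 counts, 1.29 to 2.14) and 4.61 CPM in floxed (285 counts, 4.09 to 5.18), a ratio of 0.363 (0.272 to 0.479), or 2.75-fold lower. Its raw counts, 40 in PreASKO and 231 in floxed, carried this difference with a ratio of 0.255 (0.178 to 0.358), or 0.284 (0.198 to 0.399) scaled to the library totals. The repeat-distributed counts, 23 and 54, gave 0.723 (0.423 to 1.20), an interval that includes 1. An antisense gene, 2810468N07Rik, covers 9.49% of the 50-base words of the longest Sox8 transcript on the opposite strand. It stood at 7.10 CPM in PreASKO and 6.38 CPM in floxed, and since the use of strand is not stated, reads of the shared stretch cannot be told apart.

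Sox10, the SOXE factor of neural crest, Schwann cells and melanocytes, was at the edge of detection. Sox10 (ID 20665; chromosome 15, 79154908 to 79165240, minus strand) had 29 counts in PreASKO (0.771 CPM, 0.517 to 1.11) and 0 in floxed, which allows up to 0.0486 CPM at 3 counts, so it was at least 15.9-fold higher in the PreASKO library, as measured against that floor. With counting error in PreASKO included, the exact 95% binomial interval of the ratio begins at 12.1. All of these counts were repeat-distributed. Such one-sided counts were not rare in this depth range: of 2275 genes with 20 to 60 counts over both libraries, 5.05% had 3 counts or fewer in floxed and 18.7% had 3 or fewer in PreASKO, a range chosen after the values were seen. Markers of the cells known for Sox10 did not share a direction. Among Schwann and glial markers, 4 of 8 with a row were measured, 2 higher and 2 lower, and none was at 0 in either pool. The list summed to 55.1 CPM in PreASKO and 53.1 CPM in floxed, mostly from S100b (31.9 and 25.2 CPM) and Mbp (18.0 and 21.1 CPM), while the Schwann receptor gene Erbb3 was lower in PreASKO (0.0266 CPM, against 0.631 CPM in floxed). Of the melanocyte markers, Dct had 0 counts in PreASKO and 5 in floxed, Pmel stood at 5.67 and 2.15 CPM, and Mitf, which other cells make too, at 29.7 and 32.2 CPM.

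All SOXC genes were lower in PreASKO, by unequal amounts. Sox4 (ID 20677; chromosome 13, 28948919 to 28953713, minus strand, 1 exon) stood at 17.2 CPM in PreASKO (646 counts, 15.9 to 18.6) and 24.8 CPM in floxed (1531 counts, 23.6 to 26.1), a ratio of 0.693 (0.631 to 0.760). Both columns gave nearly the same ratio for it, 0.626 (0.542 to 0.721) with raw and 0.713 (0.629 to 0.807) with repeat-distributed counts, or 0.697 and 0.690 scaled to the library totals. A noncoding gene on the opposite strand, Gm26735, shares 54.1% of the 50-base words of Sox4, and it has no row under that name, so reads of the shared stretch cannot be told apart.

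Sox11, a SOXC gene of embryonic mesenchyme and neurons (ID 20666; chromosome 12, 27334264 to 27342574, minus strand, 1 exon), stood at 8.14 CPM in PreASKO (306 counts, 7.25 to 9.10) and 14.7 CPM in floxed (908 counts, 13.8 to 15.7), a ratio of 0.554 (0.485 to 0.631). Its counts were 99.3% raw in PreASKO and 98.6% raw in floxed, and these raw counts gave a ratio of 0.501 (0.438 to 0.571), or 0.558 (0.488 to 0.636) scaled to the library totals. Sox12, the weakest activator of the SOXC subgroup (ID 20667; chromosome 2, 152393611 to 152398063, minus strand), stood at 3.78 CPM in PreASKO (142 counts, 3.18 to 4.45) and 7.24 CPM in floxed (447 counts, 6.58 to 7.94), a ratio of 0.522 (0.429 to 0.632). It was likewise mostly raw, 93.7% in PreASKO and 91.3% in floxed, and the raw ratio was 0.481 (0.392 to 0.586), or 0.535 (0.437 to 0.653) scaled to the library totals. Neither gene shares a 50-base word with a transcript of another gene, and the intervals of the pools do not overlap for any SOXC gene. The SOXC target Tead2, a cofactor-dependent transcription factor of the Hippo pathway, stood at 10.5 CPM in PreASKO and 13.6 CPM in floxed, a ratio of 0.769 (0.680 to 0.867), and the neuronal tubulin gene Tubb3 at 1.44 and 1.94 CPM, a ratio of 0.739 (0.526 to 1.03).

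The SOXD pair differed in abundance. Sox5 (ID 20678; chromosome 6, 143828425 to 144781977, minus strand) stood at 7.66 CPM in PreASKO (288 counts, 6.80 to 8.60) and 9.84 CPM in floxed (608 counts, 9.08 to 10.7), a ratio of 0.778 (0.674 to 0.897). Sox6 (ID 20679; chromosome 7, 115470872 to 116038796, minus strand) had 2 counts in PreASKO (0.0532 CPM, 0.00644 to 0.192) and 45 in floxed (0.729 CPM, 0.531 to 0.975), a ratio of 0.0730 (0.00858 to 0.280) that rests on those 2 counts. It belongs to the same depth range as Sox10, in which 18.7% of genes had 3 counts or fewer in PreASKO. Neither SOXD gene had a single raw count, nor did Sox10. Sox13, the remaining SOXD gene and not one of the 10, also had no raw count and stood at 15.0 CPM in PreASKO and 18.6 CPM in floxed, a ratio of 0.806 (0.727 to 0.892).

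Raw counts were scarcer in genes with several kinds of model. Among rows with at least 100 counts in a library whose note names both BestRefSeq and Gnomon models, as those of Sox5, Sox6, Sox10 and Sox13 do, the median raw share was 0.453% in PreASKO (7758 rows) and 0.578% in floxed (8132 rows), and 29.1% and 22.9% of rows had no raw count. Among rows naming BestRefSeq alone, as those of the other 7 members do, it was 44.9% in PreASKO (3913 rows) and 40.3% in floxed (4180 rows), and 10.7% and 9.40% of rows had no raw count. In the GENCODE annotation, 100% of the 50-base words of the longest Sox5 transcript, 94.5% of those of Sox6 and 97.5% of those of Sox10 recur in another protein-coding or other transcript of the same gene, against 0% for Sox9, Sox4, Sox11, Sox7 and Sox18, which have 1 protein-coding transcript each and so little in which a word could recur. Among genes with more than 1 such transcript, Sox12 goes the other way, with 92.5% of its words in a second transcript and mostly raw counts. Sox8, with 3, lies between, at 27.4% of words and with 63.5% raw counts in PreASKO and 81.1% in floxed.

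**Figure D2:**
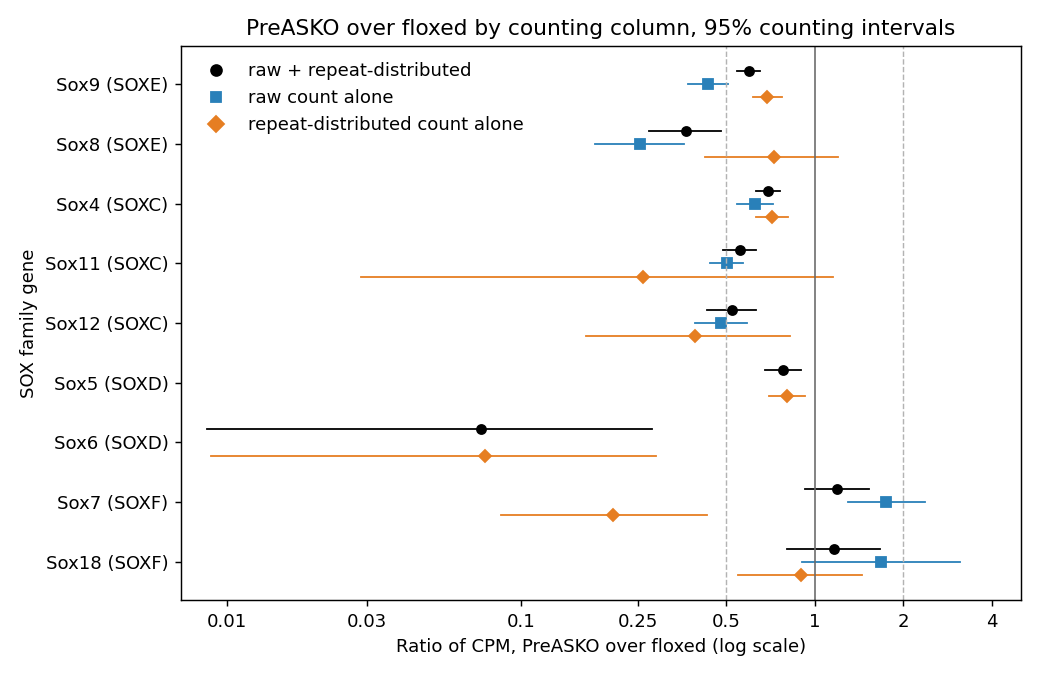
Ratio of CPM in PreASKO over floxed (x axis, log scale) for 9 SOX genes (y axis, by subgroup; Sox10 is left out because it had 0 counts in floxed), from both counting columns together (black circles), from raw counts alone (blue squares) and from repeat-distributed counts alone (orange diamonds), each single column scaled to its own total, with exact 95% binomial intervals; the solid line is 1 and dashed lines are 0.5 and 2. The columns lie on the same side of 1 for Sox9, Sox8, Sox4, Sox11 and Sox12, and on opposite sides for Sox7 (1.75 raw, 0.206 repeat-distributed) and Sox18 (1.68 raw, 0.897 repeat-distributed).

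The SOXF genes were scarce and did not share the direction of the rest, and their own direction flipped between counting columns. Sox7, an endothelial factor (ID 20680; chromosome 14, 63943673 to 63950732, plus strand), stood at 2.93 CPM in PreASKO (110 counts, 2.40 to 3.53) and 2.46 CPM in floxed (152 counts, 2.09 to 2.88), a ratio of 1.19 (0.922 to 1.53). Its raw counts were 102 in PreASKO and 86 in floxed, a ratio of 1.75 (1.30 to 2.36), whereas its repeat-distributed counts were 8 and 66, a ratio of 0.206 (0.0853 to 0.429). Scaled to the library totals, these were 1.95 (1.45 to 2.63) and 0.199 (0.0825 to 0.416). Sox18, a factor of lymphatic and blood vessel endothelium (ID 20672; chromosome 2, 181669836 to 181671640, minus strand), stood at 1.41 CPM in PreASKO (53 counts, 1.06 to 1.84) and 1.21 CPM in floxed (75 counts, 0.955 to 1.52), a ratio of 1.16 (0.801 to 1.67). It gave 1.68 (0.907 to 3.12) with raw and 0.897 (0.546 to 1.44) with repeat-distributed counts. Scaled to the library totals, these were 1.87 (1.01 to 3.47) and 0.868 (0.529 to 1.40). With both columns together, the interval of each gene's ratio includes 1. For Sox7 each column alone gave an interval that excludes 1, on opposite sides, so no direction is given for it. Sox17, the remaining SOXF gene, had 15 counts in PreASKO and 16 in floxed, a ratio of 1.54 (0.709 to 3.33).

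Most measured endothelial markers were higher in PreASKO, whereas the direction of Sox7 and Sox18 changed with the counting column. Of 15 such markers, 9 were measured, 8 of them higher, with a median log2 ratio of 0.71, and none was at 0. Over all measured genes, 45.5% were higher. Vwf (1.68 CPM in PreASKO and 0.696 in floxed), Egfl7 (1.44 and 0.826 CPM), Erg and Esam passed the 1 CPM filter only through PreASKO. The tally and the median are therefore not free of the filter. The 15 markers summed to 192 CPM in PreASKO and 178 CPM in floxed, of which Tek, also made outside endothelium, held 147 and 154 CPM. Without Tek, an alternative chosen after seeing the data, the sums were 44.7 and 24.6 CPM. Kdr, the main VEGF receptor gene, stood at 11.1 CPM in PreASKO and 5.0 CPM in floxed, Plvap at 12.0 and 8.95 CPM, Erg at 1.92 and 0.421 CPM and Esam at 2.13 and 0.324 CPM. Of the 6 markers that averaged under 1 CPM, Flt1, Tie1 and Robo4 were higher and Rasip1, Emcn and Cldn5 lower. Rasip1 had 9 counts in PreASKO and 57 in floxed, a ratio of 0.259 (0.113 to 0.528). Emcn had a ratio of 0.591 (0.243 to 1.31) and Cldn5 of 0.714 (0.400 to 1.23), intervals that include 1. The part of these cells in the SOXF levels was not tested.

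Per length, the 10 genes split into a pair of abundant genes and a low remainder. Counts were divided by the length of the longest protein-coding transcript in GENCODE vM21, so the levels depend on that choice of transcript. In PreASKO, Sox9 stood at 4.12 CPM per kb (3.80 to 4.45) and Sox4 at 3.58 (3.31 to 3.87), neighbours whose intervals overlap. In floxed they stood at 6.92 (6.60 to 7.25) and 5.17 (4.91 to 5.44), which do not overlap. Raw counts alone reversed this pair in PreASKO, with 49.1 counts per kb for Sox9 and 58.4 for Sox4, and not in floxed, with 167 and 138. Below them in PreASKO came Sox5 at 1.06 (0.939 to 1.19), Sox11 at 0.979, Sox7 at 0.887, Sox18 at 0.870 and Sox12 at 0.848 CPM per kb, each with an interval that overlaps its neighbour's. Sox8 followed at 0.559 (0.429 to 0.715), its upper bound just reaching the lower bound of Sox12 at 0.714. In floxed the order below Sox4 was Sox11 at 1.77 (1.66 to 1.89), Sox12 at 1.63 (1.48 to 1.78), Sox8 at 1.54 (1.36 to 1.73), Sox5 at 1.36 (1.25 to 1.47), Sox18 at 0.750 and Sox7 at 0.746, with overlap between each neighbouring pair from Sox11 to Sox5 and between Sox18 and Sox7. Sox8 thus held rank 8 of 10 in PreASKO and rank 5 in floxed. Sox10 stood at 0.277 and 0 CPM per kb and Sox6 at 0.00614 and 0.0841 CPM per kb, the lowest pair in both pools.

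**Figure D3:**
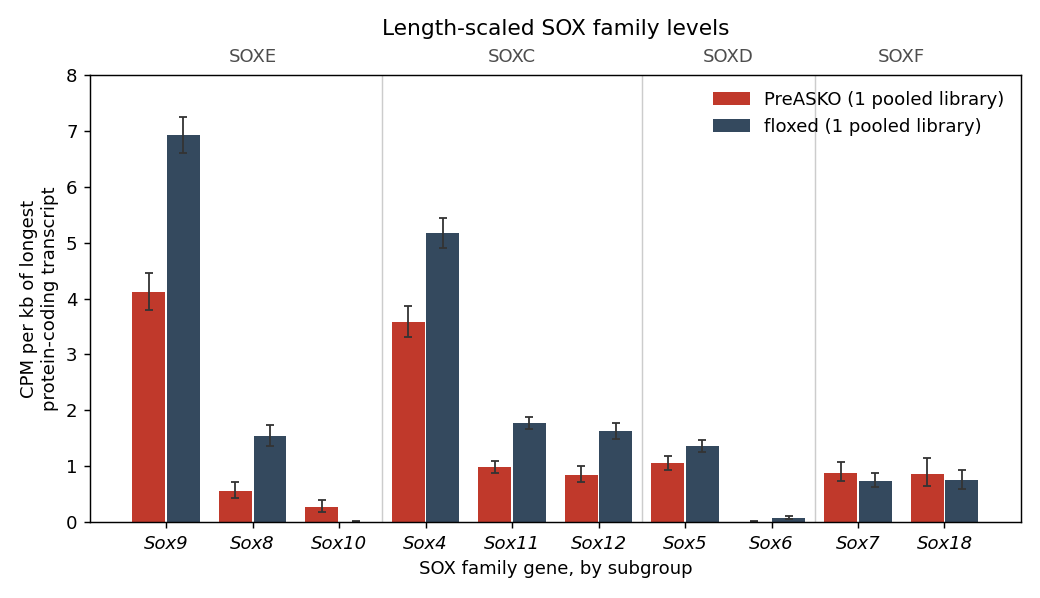
Length-scaled levels (y axis, CPM per kb of the longest protein-coding transcript) of the 10 SOX genes (x axis, by subgroup) in the PreASKO library (red) and the floxed library (dark blue); bars start at 0 and error bars are exact 95% Poisson intervals scaled by length. Sox9 and Sox4 stand above 3 CPM per kb in both pools and every other gene below 2.

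Set among all genes, 1 of the 8 SOX genes that averaged 1 CPM or more was at least 2-fold lower in PreASKO on the log2(CPM + 1) scale, where 1.52% of 13684 genes were, and none was 2-fold higher, where 2.11% of genes were. This scale understates the change of low genes. The gene past the cutoff was Sox8 at -1.07, and the nearest one short of it was Sox12 at -0.79, followed by Sox11 at -0.78, Sox9 at -0.72, Sox4 at -0.50 and Sox5 at -0.32. At a 1.5-fold cutoff, 4 of the 8 were lower (Sox8, Sox12, Sox11 and Sox9), against 8.18% of all genes, and none was higher, against 7.89%. In all, 6 of the 8 were lower by any amount, against 54.5% of all genes, and 2 were higher, against 45.5%. The median log2 ratio of the 8 genes was -0.61, beside -0.04 over all genes. These tallies and this median include Sox9, the gene targeted in PreASKO, so they are not free of the design. Of the 13684 genes, 1.15% had a log2 ratio as low as that of Sox8 or lower, 3.60% as low as Sox12, 3.67% as low as Sox11, 4.78% as low as Sox9, 11.3% as low as Sox4 and 22.4% as low as Sox5. Sox7 (0.18) and Sox18 (0.12) lay slightly above the middle and turned to -0.89 and -0.08 with repeat-distributed counts alone. Sox6 and Sox10 fell below the level filter.

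**Figure D4:**
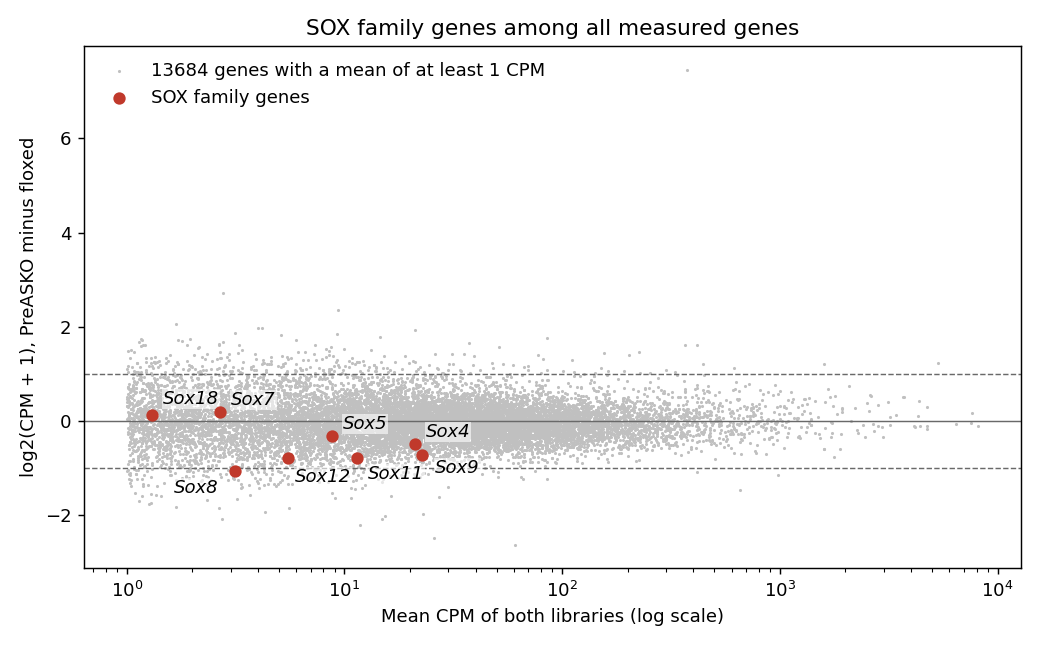
Difference in log2(CPM + 1), PreASKO minus floxed (y axis), against the mean CPM of both libraries (x axis, log scale) for 13684 genes (grey) with the 8 measured SOX genes in red; dashed lines mark 2-fold. 6 SOX genes lie below 0 and only Sox8 lies below the lower dashed line, while Sox7 and Sox18 lie just above 0.

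The other SOX genes were scarce except Sox13. Sox15, at 8 counts in PreASKO and 2 in floxed, and Sox30, at 1 and 14 counts, rest on a handful of counts. Sox2 (2 and 0 counts) and Sox21 (3 and 0 counts) were at or below the floor of 3 counts in both pools. Genes with an HMG box outside the SOX family did not share the lower levels as a group: of 17 measured, 8 were higher and 9 lower, with a median log2 ratio of -0.05 and none past 2-fold. Among them the Wnt pathway repressor gene Tcf7l1 stood at 145 CPM in PreASKO and 113 CPM in floxed, and the chromatin factor gene Ssrp1 at 146 and 138 CPM.

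Genes tied to SOX9 moved in several directions. Of 17 cartilage genes under SOX9 control with a row, 5 reached 1 CPM, 4 of them lower, with a median log2 ratio of -0.21 and none past 2-fold. The highest were Wwp2, a ubiquitin ligase gene whose intron holds a cartilage microRNA, at 28.6 CPM in PreASKO and 33.3 CPM in floxed, and Fgfr3 at 1.78 and 2.07 CPM. The classical targets were barely present: Acan had 2 counts in PreASKO and 0 in floxed, Comp 0 and 11, and Col2a1 2 and 23 counts. Also under 1 CPM in mean, Cnmd (13 and 93 counts) and Hapln1 (15 and 79) were lower. Their ratios were 0.230 (0.118 to 0.412) and 0.312 (0.167 to 0.546). Matn4 (54 and 28 counts) was higher, with a ratio of 3.17 (1.97 to 5.19). Of 17 measured regulators and cofactors of SOX9, 12 were lower, with a median of -0.16 and none past 2-fold, among them the nuclear import gene Kpnb1 at 332 and 372 CPM. Beside both lists, 54.5% of all measured genes were lower, with a median of -0.04. Ctnnb1, whose product beta-catenin and SOX9 oppose each other, stood at 426 CPM in PreASKO and 397 CPM in floxed.

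Of the 6 genes that place SOX9 in adipose precursors, 3 were lower and 3 higher, 1 and 2 of them past 2-fold. Over all measured genes, 1.52% were 2-fold lower and 2.11% 2-fold higher. Dlk1, whose product Pref-1 acts upstream of SOX9, had a ratio of 0.154 (0.142 to 0.167), and Cebpb and Cebpd, early adipogenic factors that SOX9 represses, had ratios of 2.78 (2.58 to 2.99) and 3.08 (3.01 to 3.15). Sox9 itself lay between these, and its ratio was close to that of Pparg, the receptor driving fat-cell differentiation, at 0.603 (0.579 to 0.629). The genes nearest to Sox9 in level over the 2 libraries, by distance in log2(CPM + 1), were Usp6nl (17.3 CPM in PreASKO and 28.8 in floxed), Cdc42ep1, Dut, Kntc1 and Pyroxd2, at distances of 0.020 to 0.036. With 2 libraries, likeness of pattern means only a like level and a like ratio.

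The labelled cell type was present in both pools, since 8 of 8 markers of PDGFRa+ stroma were measured, 4 higher and 4 lower, and summed to 20340 CPM in PreASKO and 20588 CPM in floxed. Markers of other cells differed more. All 12 macrophage markers were higher, against 45.5% of all measured genes, summing to 2629 CPM in PreASKO and 1367 CPM in floxed. All 9 measured mature adipocyte markers were lower, against 54.5% of all measured genes, the list summing to 205 and 375 CPM. Of these 9, Retn (0.505 and 1.75 CPM) passed the 1 CPM filter only through floxed. Below the filter, Lep (13 counts in PreASKO and 0 in floxed) and Cidea (15 and 0) were higher, and Cidec (25 and 62) was lower. Mural cell markers summed to 333 and 328 CPM, with none at 0, mostly from Abcc9 (205 and 189 CPM) and Kcnj8 (69.7 and 66.0 CPM). Of 7 measured, 4 were higher and 3 lower, among them Myh11 at a ratio of 1.56 (1.32 to 1.85) and Cspg4 at 0.539 (0.446 to 0.649). Epithelial markers, of interest because skin appendage and gland epithelia express Sox9 and Sox10, summed to 0.665 and 0.194 CPM, with Krt14 at 0 in PreASKO and Krt17 and Epcam at 0 in floxed. Satellite cell and myoblast markers, of interest for Sox8, summed to 2.45 and 3.76 CPM, nearly all Des, with Pax7 at 0 in PreASKO and Myog at 0 in floxed. Lymphocyte markers summed to 5.59 and 5.0 CPM, with none at 0. The part of these cells in the SOX levels was not tested.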

How the data were processed

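RNA was sequenced from 2 libraries, 1 per genotype, with mm10 named as build in the submitters' processing notes. Strandedness, aligner and counter were not given in the sources used here. Per the file headers, the deposited table holds a raw count and a repeat-distributed count per gene and library. The repeat-distributed count is treated as an estimated count because its deposited values need not be whole. No header says how the authors split reads between the columns. The authors' deposited fold change is a ratio of PreASKO over floxed whose normalization is not stated.

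Both columns were added, rows sharing a gene ID were summed (23669 rows, 23647 genes), and sums were scaled to CPM of the library total. Raw counts were 24.4% of counts in PreASKO and 21.9% in floxed, so ratios from 1 column change with the total they are scaled to. Ratios on the log2 scale used a pseudocount of 1 CPM and the 13684 genes that averaged 1 CPM or more. Intervals used estimated counts rounded to whole numbers. The 3-count floor is per library. Of 11991 rows with at least 100 counts per library, 97.9% had an authors' fold that, divided by the ratio of summed counts, was within 5% of the median quotient. Coordinates, transcript lengths and shared 50-base words on either strand came from GENCODE vM21 (GRCm38, the assembly mm10 is based on). The SOX genes and the gene lists were chosen with earlier results of these data known. Beyond the SOX genes, the genes named were list members past 2-fold and the 2 most abundant of each list, the 5 nearest to Sox9, and some chosen after their values were seen. Alternatives covered pseudocount, filter, scaling factors from edgeR 4.0.16, counting column, the authors' fold and cutoff. Ratios and intervals were tested on simulated data. Python 3.11.15 and scipy 1.17.1 were used. Some genes of the marker lists are not reported here by name.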

Additional observations from a re-analysis of the deposited data

How the results depend on the processing

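Each of the 8 measured SOX genes kept the direction of its log2 ratio under every alternative run on it with both counting columns. A changed pseudocount, filter or cutoff cannot turn a sign. Only the scaling factors and the authors' fold could have done so, and that fold was close to proportional to the summed counts. Raw or repeat-distributed counts alone were scaled to that column's own total, which changes the denominator as well as the counts. Scaling them to the library totals was added after seeing the data. With raw counts alone the log2 ratio of Sox9 was -1.17 and with repeat-distributed counts alone -0.51, against -0.72, and scaled to the library totals they were -0.93 and -0.55. The median over the SOX genes was -0.98 with raw counts alone (7 genes) and -0.37 with repeat-distributed counts alone (4 genes), against -0.61, and -0.76 (6 genes) and -0.49 (3 genes) scaled to the library totals. The cause of the gap between the columns was not tested. Of the SOX genes, 3 were at least 2-fold lower with raw counts alone (Sox9, Sox8 and Sox12) and 4 at a 1.5-fold cutoff, against 1. The number was 0 with a pseudocount of 5 CPM and with a minimum mean of 5 CPM, which leaves out Sox8. It was also 0 with repeat-distributed counts alone under either scaling, where 4 and 3 genes passed the filter and Sox8 did not. With raw counts scaled to the library totals it was 1 gene, Sox8, so the calls of Sox9 and Sox12 rest on the column totals. The log2 ratio of Sox8 ranged from -0.53 at a pseudocount of 5 CPM to -1.75 with raw counts alone. For the 7 genes besides Sox9, 12 of 62 values moved beyond the counting interval and 50 did not. The 50 include filter settings, which leave the value of a gene unchanged. The 62 leave out settings in which a gene fell under 1 CPM in mean, among them repeat-distributed counts alone for Sox7, Sox8, Sox11 and Sox12. Those gave -0.89 for Sox7 (against 0.18), -0.23 for Sox8 (against -1.07), -0.25 for Sox11 (against -0.78) and -0.46 for Sox12 (against -0.79).

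Over all genes, 289 were 2-fold higher and 208 lower, against 515 and 412 at a pseudocount of 0.1 CPM, 58 and 28 at 5 CPM, 153 and 93 with a minimum mean of 5 CPM, 465 and 907 with raw counts alone (147 and 108 scaled to the library totals), 597 and 471 by the authors' deposited table, and 1080 and 1120 at 1.5-fold. Of calls past the cutoff, 58.1% were higher, against 33.9% with raw counts alone and 57.6% when those are scaled to the library totals. TMM and median-of-ratios factors moved the median of all genes by 0.03, and raw counts alone by -0.08, or 0.10 scaled to the library totals. Sox9 held 28.1% of the family's counts in PreASKO and 30.4% in floxed, against 18.7% and 23.1% of raw counts, 36.7% and 38.1% of repeat-distributed counts, and 31.2% and 34.7% per kb. No paired analysis was possible because each genotype has 1 library. Counts are low for Sox10 (29 in PreASKO and 0 in floxed), Sox6 (2 and 45), Sox18 (53 and 75) and Sox8 (63 and 285), and Sox7 is limited by columns of opposite direction.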

Other observations

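Low SOX genes were not alone in having nearly all their counts in 1 pool. Cd3e, a T-cell receptor complex gene, had 1 count in PreASKO and 91 in floxed, whereas Cd3g, of the same complex, had 39 counts in PreASKO and 2 in floxed. The Schwann gene Erbb3 had 1 count in PreASKO and 39 in floxed, opposite to Sox10 with 29 and 0. The epithelial genes Epcam (12 counts in PreASKO and 0 in floxed) and Cdh1 (9 and 1) had more counts in PreASKO, as Sox10 did. The epithelial keratin genes did not share this, with Krt17 at 1 and 0 counts, Krt5 at 3 and 5, and Krt14 at 0 and 6. Of 2275 genes with 20 to 60 counts over both libraries, 23.7% had 3 counts or fewer in 1 of them.

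Sox7 showed the widest split between counting columns among the SOX genes. Raw counts were 92.7% of its counts in PreASKO and 56.6% in floxed, although only 0.0615% of its 50-base words occur in transcripts of other genes. Sox9, with no such shared word at all, still had 437 of 640 counts in PreASKO and 1078 of 1768 in floxed in the repeat-distributed column.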
